A study of Homo sapiens with 16 samples.

Results

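The genes of the telomerase holoenzyme and of the shelterin complex comprise 10 members chosen by name, *TERT*, *DKC1*, *NOP10*, *NHP2*, *TERF1*, *TERF2*, *TERF2IP*, *POT1*, *TINF2* and *ACD*, out of 60357 genes in the count tables. Of these, 9 are listed under their symbol, and *TINF2* is listed under the name AL096870.1 and was found by its Ensembl identifier ENSG00000092330.18. The RNA came from Kasumi-1 and SKNO-1, human acute myeloid leukaemia cell lines that carry t(8;21) and express the RUNX1/ETO fusion. Cells were exposed to 2 µg/ml lipid nanoparticles (LNPs) for 24 h and harvested on day 3, with LNPs that held either siRE-mod, a modified siRNA directed against the fusion site, or siMM-mod, its mismatch control. Each combination of line and siRNA has 3 libraries, which gives 12 in all, and all 12 come from LNP-treated cells. Each line stands for 1 leukaemia, and SKNO-1 was grown with GM-CSF while Kasumi-1 was not.

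Telomerase adds telomeric repeats to chromosome ends. TERT is its reverse transcriptase, and dyskerin, encoded by *DKC1*, binds and stabilises the telomerase RNA together with NOP10 and NHP2, as it does for many other small nucleolar RNAs of the same class. Shelterin coats the repeats and keeps the ends from being read as DNA breaks. TERF1 and TERF2 bind the double-stranded repeats, TERF2IP binds TERF2, POT1 binds the single-stranded overhang, ACD carries POT1 and recruits telomerase, and TINF2 joins these proteins to each other. *TERT* is silent in most differentiated cells and is expressed in stem and progenitor cells and in most leukaemias.

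Coordinates are those of GRCh38 as the tables give them. *TERT*, with 18 merged exons, spans 1253147 to 1295047 of chromosome 5. *NHP2* lies on the same chromosome from 178149460 to 178153967, *NOP10* on chromosome 15 from 34341713 to 34343177 and *DKC1* on chromosome X from 154762742 to 154777689. *POT1* lies on chromosome 7 from 124822386 to 124929983 and *TINF2* on chromosome 14 from 24239643 to 24242674. Chromosome 16 holds 3 members, *ACD* from 67657512 to 67660815, *TERF2* from 69355567 to 69408571 and *TERF2IP* from 75647773 to 75761872. *DKC1* and *TERF2IP* are on the plus strand and the other 7 of these 9 genes on the minus strand.

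The RefSeq promoters of *TERT*, *NOP10* and *POT1*, the members whose values do not overlap between libraries with and without *CD34*, are shown from 250 bases before to 50 bases after the start, read 5′ to 3′ on the strand of the gene. They lie at chr5:1295019-1295318, chr15:34343087-34343386 and chr7:124929776-124930075 of GRCh38.p14. Capitals mark the E-box CACGTG, bound by MYC and MAX among others, and the GC box GGGCGG, bound by SP1 and SP3, on either strand.
TERT: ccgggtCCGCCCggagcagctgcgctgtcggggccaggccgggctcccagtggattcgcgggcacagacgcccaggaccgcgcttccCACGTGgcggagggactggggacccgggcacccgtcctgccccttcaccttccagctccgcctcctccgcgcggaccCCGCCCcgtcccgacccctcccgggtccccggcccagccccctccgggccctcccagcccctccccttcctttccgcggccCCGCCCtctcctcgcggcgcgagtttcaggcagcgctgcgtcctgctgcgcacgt
NOP10: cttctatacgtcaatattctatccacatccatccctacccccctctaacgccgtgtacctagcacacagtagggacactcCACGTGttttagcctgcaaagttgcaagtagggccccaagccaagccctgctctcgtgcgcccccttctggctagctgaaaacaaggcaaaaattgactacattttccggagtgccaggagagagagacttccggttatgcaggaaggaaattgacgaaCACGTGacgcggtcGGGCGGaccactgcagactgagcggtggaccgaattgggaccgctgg
POT1: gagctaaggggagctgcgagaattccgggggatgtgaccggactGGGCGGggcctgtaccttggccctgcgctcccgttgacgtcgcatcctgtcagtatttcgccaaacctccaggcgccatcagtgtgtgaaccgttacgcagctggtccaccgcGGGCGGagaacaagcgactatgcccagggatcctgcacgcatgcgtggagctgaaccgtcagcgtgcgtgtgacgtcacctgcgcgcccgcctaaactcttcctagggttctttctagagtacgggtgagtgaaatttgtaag
The RefSeq promoter table held 8 of the 10 members, with no entry for *TERF1* and *TERF2*. CACGTG was found once in *TERT*, starting at −163 from the transcription start, and in *NOP10* at −170 and −11, and in no other of the 8, while 7.3% of all 35116 promoters of this length hold it. The *TERT* window ends in CACGT, so a CACGTG that crosses this edge would not be counted. GGGCGG was found in all 8, against 45.0% of all promoters. RUNX proteins, whose DNA-binding domain the fusion keeps, read TGTGGT or TGCGGT. These letters were searched on both strands and do not overlap the other motifs in sequence. TGTGGT was found in the *ACD* promoter and TGCGGT in that of *TERF2IP*, against 13.1% and 7.3% of all promoters, and neither was found in these windows of *TERT*, *NOP10*, *POT1*, *DKC1*, *NHP2* and *TINF2*.

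The libraries hold between 60559466 and 147990959 counts on genes (median 89160101). *RUNX1T1*, which contributes the 3′ part of the fusion and whose reads include those of the fusion, went against the labels in part, so libraries are named by their label throughout. Whether labels of libraries were exchanged was not tested. Values per library are CPM, the counts scaled to a common library size, after TMM normalization (normalized CPM). By this measure *RUNX1T1* was at 92.9 in Kasumi-1 siMM-mod replicate 2 and at 159 in Kasumi-1 siRE-mod replicate 2. *CD34*, a surface marker of stem and progenitor cells, was at 117 to 421 normalized CPM in 6 libraries and at 0.108 to 0.627 in the other 6. The 6 CD34-expressing libraries are the 3 SKNO-1 siMM-mod libraries, SKNO-1 siRE-mod replicate 1 and Kasumi-1 siMM-mod replicates 1 and 2. The 6 CD34-silent libraries are the 3 Kasumi-1 siRE-mod libraries, Kasumi-1 siMM-mod replicate 3 and SKNO-1 siRE-mod replicates 2 and 3. *RUNX1T1* was at 297 to 329 normalized CPM in 3 CD34-expressing libraries and at 92.9 to 127 in the other 3, and at 159 to 165 in 3 CD34-silent libraries and at 37.3 to 44.4 in the other 3. The 3 CD34-silent libraries with lower *RUNX1T1* are Kasumi-1 siRE-mod replicates 1 and 3 and SKNO-1 siRE-mod replicate 3. The CD34-expressing libraries with lower *RUNX1T1* are SKNO-1 siMM-mod replicate 3, SKNO-1 siRE-mod replicate 1 and Kasumi-1 siMM-mod replicate 2. Each of these sets of 3 holds libraries of both lines, and the sets were read from the data and are not groups of the study, so their values are given as ranges with no test. The 5 myeloid markers *PTPRC*, *MPO*, *CD33*, *SPI1* and *KIT* were present in both CD34 sets. Their summed level was 11630 to 23790 normalized CPM in the CD34-expressing and 2422 to 6855 in the CD34-silent libraries. Most of this sum was *MPO*, at 10440 to 22670 and 1783 to 5750 in the same order. *KIT* was also lower in every CD34-silent than in every CD34-expressing library. *PTPRC* went the other way without overlap, at 67.8 to 80.2 in the CD34-expressing and 185 to 441 in the CD34-silent libraries. Of all genes compared, 17.5% were all above and 15.6% all below in the CD34-silent libraries. *CD33* and *SPI1* overlapped between the sets. Of 7 markers of other cell types, *EPCAM* was at 77.6 to 104 normalized CPM in the CD34-expressing and at or under 0.0108 in the CD34-silent libraries, and the other 6 were under 1 in all 12. *IL5RA* was the reverse, at or under 0.179 in the CD34-expressing and at 36.3 to 68.0 in the CD34-silent libraries.

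**Figure D1:**
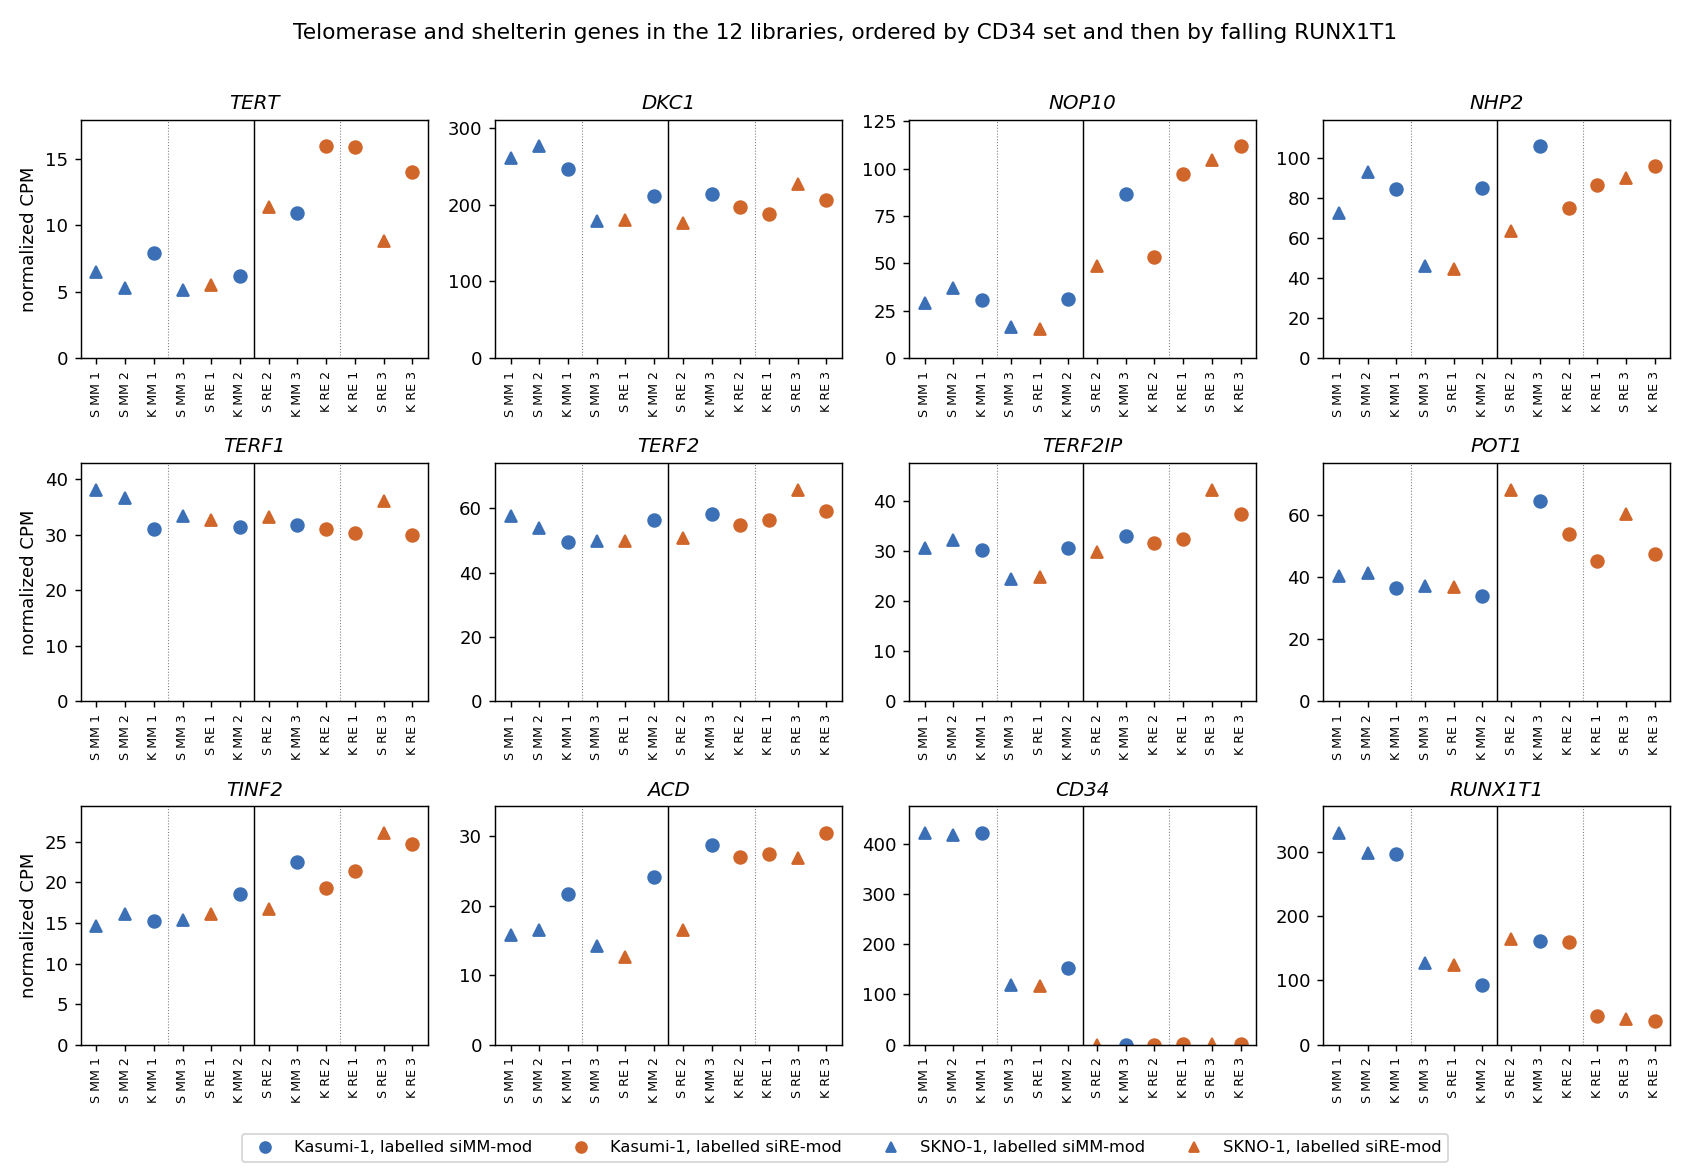
Normalized CPM of the 10 genes, *CD34* and *RUNX1T1* (vertical axes, linear and starting at 0) in each of the 12 libraries, where K and S stand for Kasumi-1 and SKNO-1, MM and RE for the siRNA label and the number for the replicate. The solid line separates the 6 CD34-expressing libraries (left) from the 6 CD34-silent ones, dotted lines separate higher from lower *RUNX1T1*, and *TERT*, *NOP10* and *POT1* are the genes whose points right of the solid line all lie above those left of it.

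All 10 members were expressed in all 12 libraries and passed the filter of at least 600 reads in total. To compare genes with each other, the deposited FPKM, which divide by the exonic length of the gene, were used. The values in this paragraph are FPKM levels unless named otherwise. *NOP10* had the highest median over the 12 libraries with 72.4, followed by *NHP2* with 52.8 and *DKC1* with 52.0. The order of these 3 was not stable, since *NOP10* exceeded *NHP2* in 9 of 12 libraries and *NHP2* exceeded *DKC1* in 7 of 12. The shelterin genes were several-fold lower. *TERF2* led them with a median of 9.47 and was above every other shelterin gene in 12 of 12 libraries. *TERF2IP*, *ACD* and *TINF2* had medians of 6.60, 6.37 and 6.14 and could not be ordered, with *TERF2IP* above *ACD* in 7 and *ACD* above *TINF2* in 6 of 12 libraries. *POT1* had a median of 5.26 and *TERF1* one of 3.79, with *POT1* above *TERF1* in 12 of 12. Their low place depends on the length, taken over all merged exons. It is 8717 bases for *POT1* and 8832 for *TERF1*, against 2712 for *TINF2* and 3223 for *ACD*. In normalized CPM, which do not divide by length, the medians were 43.3 for *POT1* and 32.2 for *TERF1*. Those of *TINF2* and *ACD* were lower, at 17.7 and 22.9. *TERT* was lowest with a median of 1.41, from 0.767 to 3.20, and was below *TERF1* in 12 of 12 libraries. The dyskerin gene exceeded *TERT* by 16.6-fold to 73.0-fold within a library.

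*TERT*, the catalytic subunit, was at 6.50, 5.31 and 7.92 normalized CPM in the CD34-expressing libraries with higher *RUNX1T1*, which are SKNO-1 siMM-mod replicates 1 and 2 and Kasumi-1 siMM-mod replicate 1. In those with lower *RUNX1T1* it was at 5.11 in SKNO-1 siMM-mod replicate 3, at 5.51 in SKNO-1 siRE-mod replicate 1 and at 6.15 in Kasumi-1 siMM-mod replicate 2. In the CD34-silent libraries with higher *RUNX1T1* it was at 11.4 in SKNO-1 siRE-mod replicate 2, at 10.9 in Kasumi-1 siMM-mod replicate 3 and at 15.9 in Kasumi-1 siRE-mod replicate 2. In the CD34-silent libraries with lower *RUNX1T1* it was at 15.9 in Kasumi-1 siRE-mod replicate 1, at 8.84 in SKNO-1 siRE-mod replicate 3 and at 14.0 in Kasumi-1 siRE-mod replicate 3. Every CD34-silent library was thus above every CD34-expressing one, as held for 17.5% of all genes compared, and the higher and lower *RUNX1T1* libraries overlapped within both CD34 sets. The counts behind these values range from 326 to 583 reads in the CD34-expressing and from 1010 to 2070 in the CD34-silent libraries. The library labelled siMM-mod that is CD34-silent, Kasumi-1 replicate 3, had more *TERT* than every other library of that label, and the library labelled siRE-mod that is CD34-expressing, SKNO-1 replicate 1, had less than every other of its label. Within each CD34 set the ranges of the lines overlapped, with SKNO-1 at 5.11 to 6.50 and 8.84 to 11.4 and Kasumi-1 at 6.15 to 7.92 and 10.9 to 15.9. In bulk RNA, fewer cells that express a gene and less of its RNA per cell cannot be told apart.

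Compared by label, *TERT* in Kasumi-1 was at 8.34 ± 2.42 normalized CPM (SD, n = 3) in the siMM-mod and at 15.3 ± 1.12 (SD, n = 3) in the siRE-mod libraries, and siRE-mod was above without overlap, as held for 10.5% of all genes compared. This comparison asks whether the gene differed between the siRNA labels. The siMM-mod label holds both CD34-expressing and CD34-silent libraries here, and the siRE-mod libraries are all CD34-silent. A difference between the labels therefore cannot be told apart from one between the CD34 sets. The log2 fold change was 0.88 ± 0.25 (SE) with an adjusted p = 0.252 by the quasi-likelihood test of edgeR, adjusted by Benjamini-Hochberg, which called 0 of 13608 genes (0% of those tested), while 2435 genes (17.9%) had an unadjusted p under 0.05. DESeq2 called *TERT* higher, with a log2 fold change of 0.86 and an adjusted p = 0.0271, among 1163 genes called (8.55%), of which 214 (1.57%) were higher. Without Kasumi-1 siMM-mod replicate 3, after which all siMM-mod libraries of the fit are CD34-expressing and all siRE-mod libraries CD34-silent, edgeR called *TERT* too, with a log2 fold change of 1.12 and an adjusted p = 0.00787. That fit called 4250 of 13200 genes, so the call is not particular to *TERT*. Over the 12 alternatives in Kasumi-1 the adjusted p of *TERT* ranged from 0.00787 to 0.700. In SKNO-1, *TERT* was at 5.64 ± 0.752 (SD, n = 3) in the siMM-mod and at 8.58 ± 2.95 (SD, n = 3) in the siRE-mod libraries, which overlapped. The log2 fold change there was 0.60 ± 0.35 (SE), with an adjusted p = 0.539 by edgeR and an adjusted p = 0.544 by DESeq2. Their difference, tested as an interaction of cell line and siRNA, was −0.27 ± 0.41 (SE) on the log2 scale, with an adjusted p = 1.0 by edgeR.

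Over both lines, with the cell line as a term, *TERT* differed by a log2 fold change of 0.74 ± 0.20 (SE). Its adjusted p = 0.0733 by edgeR missed the threshold of 0.05, and edgeR called 0 of 15863 genes (0%), with 4959 (31.3%) at an unadjusted p under 0.05. DESeq2 gave 0.71 and an adjusted p = 0.00902 and called 3449 genes (21.7%), 1500 of them higher (9.46%). Without Kasumi-1 siMM-mod replicate 3 the edgeR value was 0.84 with an adjusted p = 0.0167, and without SKNO-1 siRE-mod replicate 1 it was 0.86 with an adjusted p = 0.00807. These fits called 4336 of 15612 and 4123 of 15518 genes. With log2 *CD34* as a further term the log2 fold change of *TERT* was 0.27 ± 0.23 (SE) with an adjusted p = 0.794 by edgeR. *CD34* goes with the label in all libraries but Kasumi-1 siMM-mod replicate 3 and SKNO-1 siRE-mod replicate 1, so this fit cannot tell them apart. In it, 560 of all 15863 genes had an unadjusted p under 0.05. The adjusted p of *TERT* ranged from 0.00807 to 0.794 over the 19 alternatives. Nothing in the labels says that libraries of a group came from separate cultures, so p-values measure the spread between these libraries, which may be technical.

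**Figure D2:**
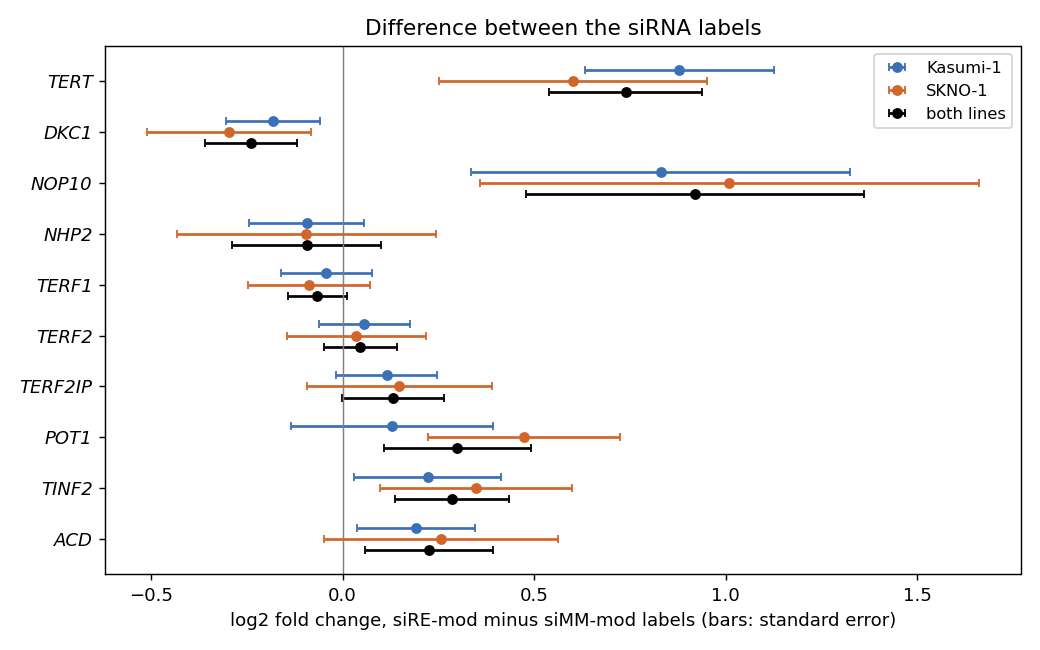
Log2 fold change between the siRNA labels (horizontal axis, positive where higher in siRE-mod) for each gene in Kasumi-1, SKNO-1 and both lines together. Bars show a standard error derived from the fold change and the F statistic of the edgeR test. *TERT* and *NOP10* lie farthest to the right, at 0.74 and 0.92 over both lines, and the bars of *NOP10* are the widest.

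*NOP10*, a small RNA-binding subunit of the dyskerin complex, had the widest relative range of the 10 genes, from 15.4 to 112 normalized CPM. In the CD34-expressing libraries it was at 29.3, 37.2 and 30.9 where *RUNX1T1* was higher (SKNO-1 siMM-mod replicates 1 and 2, Kasumi-1 siMM-mod replicate 1). It was at 16.4, 15.4 and 31.3 where *RUNX1T1* was lower (SKNO-1 siMM-mod replicate 3, SKNO-1 siRE-mod replicate 1, Kasumi-1 siMM-mod replicate 2). In the CD34-silent libraries it was at 48.4, 86.5 and 53.2 where *RUNX1T1* was higher (SKNO-1 siRE-mod replicate 2, Kasumi-1 siMM-mod replicate 3, Kasumi-1 siRE-mod replicate 2) and at 97.4, 105 and 112 where it was lower (Kasumi-1 siRE-mod replicate 1, SKNO-1 siRE-mod replicate 3, Kasumi-1 siRE-mod replicate 3). The CD34 sets did not overlap, with the CD34-silent libraries above, as held for 17.5% of all genes compared. Within the CD34-silent set the libraries with lower *RUNX1T1* were all above those with higher *RUNX1T1*, as held for 21.7%. Within the CD34-expressing set the libraries with higher and lower *RUNX1T1* overlapped. By label, *NOP10* was at 49.6 ± 32.0 (SD, n = 3) against 87.4 ± 30.5 (SD, n = 3) in Kasumi-1 and at 27.6 ± 10.5 against 56.2 ± 45.1 (SD, n = 3 each) in SKNO-1, with overlap in both. The log2 fold change was 0.92 ± 0.44 (SE) over both lines with an adjusted p = 0.177 by edgeR, and DESeq2 did not call it either, with an adjusted p = 0.105. In edgeR it was called in Kasumi-1 only without siMM-mod replicate 3, at 1.49 with an adjusted p = 0.0201, and over both lines only without SKNO-1 siRE-mod replicate 1, at 1.11 with an adjusted p = 0.0470. Those fits called 4250 of 13200 and 4123 of 15518 genes. Over the alternatives, the adjusted p of *NOP10* lay between 0.0201 and 0.726 in Kasumi-1 and between 0.0470 and 0.890 over both lines.

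*NHP2* and *DKC1*, the partners of *NOP10*, overlapped between the CD34 sets. *NHP2*, an RNA-binding protein of the same complex, was at 44.7 to 93.0 normalized CPM in the CD34-expressing and at 63.7 to 106 in the CD34-silent libraries. Its lowest values, 46.0 and 44.7, were in SKNO-1 siMM-mod replicate 3 and SKNO-1 siRE-mod replicate 1, the same libraries in which *NOP10* was lowest. The ratio of *NOP10* to *NHP2* in FPKM was 0.942 to 1.10 in the CD34-expressing libraries. In the CD34-silent libraries it was 1.93 to 2.22 with higher *RUNX1T1* and 3.07 to 3.17 with lower *RUNX1T1*. These 3 ranges did not overlap. Nor did those of *NOP10* alone in FPKM, at 28.7 to 57.2, 87.6 to 146 and 196 to 223 in the same order. The share of gene pairs for which this holds was not computed. *NHP2* shares 417 exonic bases, or 27.6% of its length, with *RMND5B* on the opposite strand, and whether the counting used strand is not given in the sources used here, so part of its reads could belong to that gene, which was listed at 2.04 to 18.1 CPM. *DKC1*, the pseudouridine synthase of the complex, was at 246 to 276 normalized CPM in the CD34-expressing libraries with higher *RUNX1T1*. In those with lower *RUNX1T1* it was at 179 to 211, below without overlap, as held for 20.1% of all genes compared. In the CD34-silent libraries it was at 177 to 214 and 187 to 227. By label, *DKC1* had log2 fold changes of −0.18 ± 0.12 (SE) in Kasumi-1 and −0.30 ± 0.21 (SE) in SKNO-1, and its adjusted p = 0.190 over both lines by edgeR missed the threshold. *NHP2* was at −0.09 ± 0.19 (SE) over both lines with an adjusted p = 0.761.

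Among the shelterin genes, *POT1*, the single-strand binding subunit, was above in every CD34-silent library, as held for 17.5% of all genes compared. It was at 40.5, 41.3 and 36.5 normalized CPM in the CD34-expressing libraries with higher *RUNX1T1* (SKNO-1 siMM-mod replicates 1 and 2, Kasumi-1 siMM-mod replicate 1). It was at 37.2, 37.0 and 34.0 in those with lower *RUNX1T1* (SKNO-1 siMM-mod replicate 3, SKNO-1 siRE-mod replicate 1, Kasumi-1 siMM-mod replicate 2). In the CD34-silent libraries it was at 68.2, 64.5 and 54.0 where *RUNX1T1* was higher (SKNO-1 siRE-mod replicate 2, Kasumi-1 siMM-mod replicate 3, Kasumi-1 siRE-mod replicate 2) and at 45.3, 60.5 and 47.5 where it was lower (Kasumi-1 siRE-mod replicate 1, SKNO-1 siRE-mod replicate 3, Kasumi-1 siRE-mod replicate 3). Within each CD34 set the 2 levels of *RUNX1T1* overlapped, and *TERT* and *POT1* did not rank the CD34-silent libraries alike, since SKNO-1 siRE-mod replicate 2 had the most *POT1* and Kasumi-1 siRE-mod replicate 2 the most *TERT*. By label, the log2 fold change of *POT1* was 0.13 ± 0.26 (SE) in Kasumi-1, 0.47 ± 0.25 (SE) in SKNO-1 and 0.30 ± 0.19 (SE) over both lines, with adjusted p-values of 0.797, 0.510 and 0.293 by edgeR, and DESeq2 did not call it. It was called by edgeR without Kasumi-1 siMM-mod replicate 3, at 0.47 in Kasumi-1 (adjusted p = 0.0435) and 0.48 over both lines (adjusted p = 0.0366), and in SKNO-1 without siRE-mod replicate 1, at 0.68 (adjusted p = 0.0367). In the same order, those fits called 4250 of 13200, 4336 of 15612 and 2535 of 13119 genes. Over the alternatives the adjusted p ranged from 0.0435 to 0.997, from 0.0367 to 0.990 and from 0.0366 to 0.794 in Kasumi-1, SKNO-1 and both lines. *POT1* shares 111 exonic bases with *POT1-AS1* on the opposite strand, which was listed at no more than 0.517 CPM.

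*TERF1* and *TERF2*, which bind the double-stranded repeats, had the narrowest relative ranges of the 10 genes. *TERF1*, on the plus strand of chromosome 8 from 73008864 to 73048123, was at 31.0 to 38.1 normalized CPM in the CD34-expressing and at 29.9 to 36.0 in the CD34-silent libraries, and its 5 pseudogenes were each at no more than 0.132 CPM. *TERF2* was at 49.6 to 57.8 and 50.8 to 65.8. *TERF2IP* was at 24.4 to 32.1 and 29.7 to 42.2, and it shares 176 exonic bases, 4.0% of its length, with *KARS* on the opposite strand, which was listed at 180 to 347 CPM. Over both lines, the log2 fold changes by label were −0.07 ± 0.08 (SE) for *TERF1*, 0.05 ± 0.10 for *TERF2* and 0.13 ± 0.13 for *TERF2IP*, with adjusted p-values of 0.575, 0.763 and 0.510 by edgeR.

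The bridging subunits varied more. *TINF2* was at 14.6 to 18.6 normalized CPM in the CD34-expressing and at 16.7 to 26.1 in the CD34-silent libraries. In SKNO-1 its siRE-mod libraries, at 16.1, 16.7 and 26.1, were all above its siMM-mod libraries, at 14.6, 16.1 and 15.4. This held for 5.93% of all genes compared. For *TINF2*, replicate 1 of siRE-mod was above replicate 2 of siMM-mod by less than the rounding of these values shows. *ACD* was at 12.6 to 24.1 and 16.4 to 30.5, and within both sets every SKNO-1 library was below every Kasumi-1 library, at 12.6 to 16.5 against 21.7 and 24.1 in the CD34-expressing set and at 16.4 and 26.8 against 27.0 to 30.5 in the CD34-silent set. The share of all genes that lie below in SKNO-1 in this way was not computed. *ACD* shares 58 exonic bases, 1.8% of its length, with *CARMIL2* on the opposite strand, which was listed at 25.7 to 67.3 CPM. Over both lines, the log2 fold changes were 0.29 ± 0.15 (SE) for *TINF2* and 0.23 ± 0.17 (SE) for *ACD*, with adjusted p-values of 0.207 and 0.360 by edgeR, and DESeq2 called neither.

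Read over all 10 genes, 3 were above in every CD34-silent library (*TERT*, *NOP10* and *POT1*) and 0 were below, while 17.5% of the 15863 genes compared were all above and 15.6% all below. In the deposited CPM, which are scaled to total counts only, 5 of the 10 were all above, *TERF2IP* and *TINF2* in addition, against 21.6% of all genes, and with DESeq2's size factors the 3 genes were as with TMM, against 16.5%. Lower against higher *RUNX1T1* gave 1 gene below (*DKC1*, background 20.1%) and 0 above (18.1%) among the CD34-expressing libraries, and 1 gene above (*NOP10*, background 21.7%) and 0 below (21.6%) among the CD34-silent ones. By label, *TERT* was above (background 10.5%) and *DKC1* below (11.1%) without overlap in Kasumi-1, and *TINF2* above (5.93%) and 0 genes below (6.01%) in SKNO-1. By edgeR, 0 of the 10 were called in either line, in their interaction or over both lines, 1 of 10 (*TERT*) had an unadjusted p under 0.05 in Kasumi-1 and over both lines and 0 in SKNO-1 and in the interaction. In SKNO-1, 0 of 13628 genes (0%) were called by edgeR, 1455 (10.7%) had an unadjusted p under 0.05 and DESeq2 called 372 (2.73%), of which 354 were higher (2.6%). For the interaction, edgeR called 0 of 15863 (0%), 106 (0.668%) had an unadjusted p under 0.05 and DESeq2 called 127 (0.801%). The median log2 fold change of the 10 genes over both lines was 0.18, beside 0.04 over all genes tested.

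**Figure D3:**
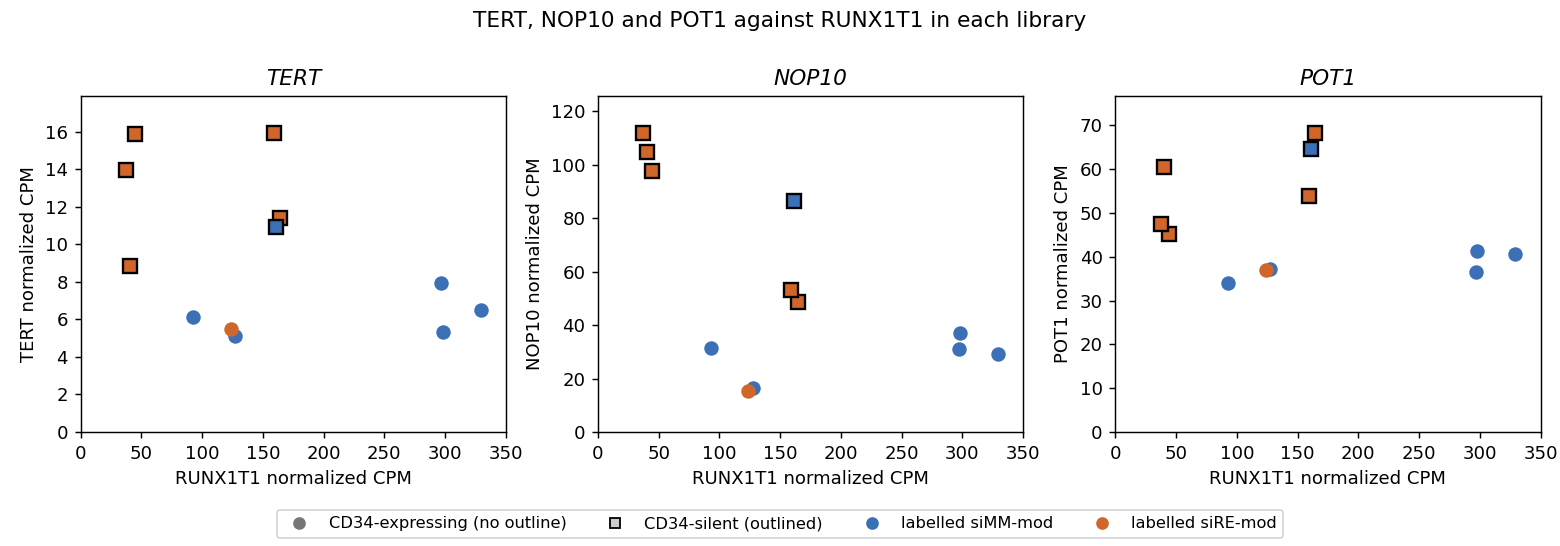
*TERT*, *NOP10* and *POT1* (vertical axes, normalized CPM) against *RUNX1T1* (horizontal axis, normalized CPM) in the 12 libraries, with circles for CD34-expressing and outlined squares for CD34-silent libraries, blue for the label siMM-mod and orange for siRE-mod. In each panel all squares lie above all circles, for *TERT* at 8.84 to 15.9 against 5.11 to 7.92. *RUNX1T1* reaches 165 among the squares and is at 92.9 to 127 among 3 of the circles, and its part in these levels was not tested.

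The lists of further telomere genes were counted in the same fits over both lines. Over all 15863 genes tested there, 31.3% had an unadjusted p under 0.05 by edgeR and DESeq2 called 21.7% (9.46% higher), the shares to set beside the counts below. Of 13 genes for the telomerase RNA and its assembly, 10 were tested, with 0 called by edgeR, 0 higher and 2 lower at an unadjusted p under 0.05 and a median log2 fold change of −0.16, and DESeq2 called 1 lower (*NOLC1*). The smallest p was that of *NOLC1*, a nucleolar chaperone of this class of RNA, at −0.65 ± 0.18 (SE) with an adjusted p = 0.0745, followed by *PARN*, which trims the 3′ end of the telomerase RNA, at −0.36 (adjusted p = 0.136), and *ZCCHC8*, of a nuclear exosome adaptor, at −0.44 (adjusted p = 0.174). *PARN* was at 38.3 to 45.1 normalized CPM in the CD34-expressing and at 25.0 to 31.2 in the CD34-silent libraries. *TERC*, the telomerase RNA itself, was at no more than 0.254 normalized CPM in all 12 libraries and was not tested. Whether the library preparation captures this RNA is not given in the sources used here, so this level does not show its amount in the cells. Of 18 genes for telomere replication and end protection, 17 were tested, with 0 called, 2 higher and 3 lower at an unadjusted p under 0.05 and a median of 0.09, and DESeq2 called 1 higher (*ZBTB48*) and 3 lower (*WRN*, *TNKS2* and *MRE11*). The smallest p were those of *TNKS2*, a tankyrase that modifies TERF1, at −0.55 ± 0.15 (SE, adjusted p = 0.0738), *MRE11*, a nuclease that acts on DNA ends, at −1.0 ± 0.31 (SE, adjusted p = 0.0785), and *ZBTB48*, a telomere-binding zinc finger protein, at 0.40 (adjusted p = 0.0922). *MRE11* was at 80.9 to 101 normalized CPM in the CD34-expressing and at 28.9 to 36.7 in the CD34-silent libraries, and *TNKS2* at 145 to 157 and 76.7 to 96.1.

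For the next 2 lists the shares over all genes are the same, 31.3% at an unadjusted p under 0.05 by edgeR and 21.7% called by DESeq2. Of 11 regulators of *TERT* transcription, 10 were tested, with 0 called by edgeR, 1 higher and 2 lower at an unadjusted p under 0.05 and a median log2 fold change of 0.07, and DESeq2 called *WT1* higher and *MYC* lower. *MYC*, an activator of *TERT* that binds the E-box, was at −0.62 ± 0.15 (SE) with an adjusted p = 0.0725. It was at 395 to 685 normalized CPM in the CD34-expressing and at 289 to 514 in the CD34-silent libraries, with overlap, and its 3 lowest values, 289 to 324, were in the CD34-silent libraries with lower *RUNX1T1*. *WT1*, a zinc finger factor expressed in many leukaemias, was at 0.88 ± 0.23 (SE) with an adjusted p = 0.0729. *WT1* was at 17.8 to 24.7 normalized CPM in the CD34-expressing libraries, at 25.3 to 31.6 in the CD34-silent libraries with higher *RUNX1T1* and at 52.4 to 58.0 in those with lower *RUNX1T1*. Of 7 proliferation genes all were tested, with 0 called, 0 higher and 2 lower at an unadjusted p under 0.05 and a median of −0.23, and DESeq2 called 2 lower (*CDK1* and *TOP2A*). The smallest p among them were those of *TOP2A* at −0.35, *CDK1* at −0.48 and *MCM2* at −0.25, with adjusted p-values of 0.0882, 0.104 and 0.218 by edgeR. Between the CD34 sets, the counts of genes without overlap were 0 above and 2 below of 10 for the telomerase RNA and assembly, 1 above and 4 below of 17 for replication and end protection, 1 above and 1 below of 10 for the regulators and 0 above and 1 below of 7 for proliferation, against the same 17.5% above and 15.6% below of all genes.

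The genes most like *TERT* were sought among 7627 genes with a mean of at least 16 normalized CPM, by Pearson's r of log2 normalized CPM over the 12 libraries. As the libraries fall into CD34 sets, r over 12 includes the difference between these sets and is given as a description, with r within the 6 CD34-expressing and the 6 CD34-silent libraries beside it. The highest were *CDK10* (r = 0.97, within sets 0.80 and 0.88), *ARFGAP1* (0.96, within sets 0.82 and 0.81), *SLC29A2* (0.96, within sets 0.99 and 0.80), *TSNARE1* (0.94, within sets 0.47 and 0.85) and *PIEZO1* (0.93, within sets 0.88 and 0.65). The lowest were *PPIL3* (−0.98, within sets −0.79 and −0.94), *ACBD5* (−0.98, within sets −0.76 and −0.97) and *UBE2Q2* (−0.97, within sets −0.84 and −0.91). *CDK10*, a cyclin-dependent kinase, was at 19.1 to 25.8 normalized CPM in the CD34-expressing and at 27.8 to 37.3 in the CD34-silent libraries. Among the other members, the highest r with *TERT* over the 12 libraries were those of *NOP10* (0.79, within sets 0.45 and −0.17), *ACD* (0.74, within sets 0.64 and 0.22) and *POT1* (0.63, within sets −0.22 and −0.73). The markers *EPCAM*, *PTPRC*, *MPO*, *KIT* and *IL5RA* also did not overlap between the CD34 sets, and their part in the levels of *TERT*, *NOP10* and *POT1* was not tested.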

How the data were processed

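RNA-seq reads of 12 libraries from 2 cell lines were trimmed by the authors with Trim Galore 0.6.5, aligned to GRCh38 with STAR 2.7.10a and counted over exons. The methods name Subread 1.6.5 and the file headers Rsubread 1.32.4 under R 3.5.1. The strand setting is not given in the sources used here. The deposited tables hold raw counts, CPM scaled to total counts and FPKM, which are those CPM per kb of exon. Counts were used for all tests, CPM as an alternative scaling and FPKM to compare genes. Libraries were grouped by their labels.

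A fit kept the genes whose reads over its libraries summed to 600 or more, and counts were normalized by TMM and tested with the quasi-likelihood test of edgeR 4.0.16 (robust) in R 4.3.3, with Benjamini-Hochberg adjustment over all genes tested and a threshold of 0.05. The fits compared siRE-mod with siMM-mod in each line, their interaction, and both lines with the line as a term. Standard errors (SE) were derived as the absolute log2 fold change divided by the square root of the F statistic of the edgeR test. DESeq2 1.42.0, other scalings, filters, covariates, a replicate block and leaving out each library were alternatives. Libraries were called CD34-expressing at 10 normalized CPM of *CD34* or more. Log2 values for the likeness to *TERT* used a prior count of 2. Python 3.11.15 with numpy 2.4.6, pandas 2.3.3 and matplotlib 3.10.9 was used for tables and figures. The code of the fits was checked on simulated counts with less spread than these data and no CD34 sets, which does not measure the power of the tests here.

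The genes named are the 10 members, the genes by which libraries are read, counts of each list with up to 3 genes of smallest p over both lines, up to 5 genes with the highest and 3 with the lowest correlation with *TERT*, the cell type markers and the genes that share exonic bases with a member. The members and lists were chosen with earlier results of these data known. *TINF2* was taken by its identifier, because the tables give it another name, and 1 listed gene, *PAPD5*, had no entry under that name. The values of 1 further listed gene are not reported here. The reads of these genes are many, so counting error is small beside the spread between libraries, and no 2 libraries were alike within sampling noise. In the 4 deposited tables of counts from mice, the 10 members and housekeeping genes are listed at 0, so no level was taken from them.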

Additional observations from a re-analysis of the deposited data

Results flagged for a closer look

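Of 20 groups of 6 libraries (each of the 10 genes by siRNA label over both lines), 3 held a library far from the other 5 by Dixon's criterion, where chance gives about 1 in 20. *NOP10* was at 86.5 normalized CPM in Kasumi-1 siMM-mod replicate 3, against 37.2 at most in the other libraries labelled siMM-mod, and *POT1* was at 64.5 in the same library, against 41.3 at most. That library is the CD34-silent one among those labelled siMM-mod. *TERF2IP* was at 24.4 in SKNO-1 siMM-mod replicate 3, the library with the fewest counts, below the others of that label.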

How the results depend on the processing

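Counts of genes called by edgeR were 0 in all 4 comparisons and stayed at 0 with other scalings, filters and terms, while DESeq2 called 1163 for Kasumi-1, 372 for SKNO-1, 127 for their interaction and 3449 over both lines. Leaving out 1 library at a time gave 0 to 4250 calls in Kasumi-1 (4250 without siMM-mod replicate 3), 0 to 2535 in SKNO-1 (2535 without siRE-mod replicate 1), 0 for the interaction and 0 to 4336 over both lines (4336 without Kasumi-1 siMM-mod replicate 3, 4123 without SKNO-1 siRE-mod replicate 1 and 860 without SKNO-1 siMM-mod replicate 3). The cause was not tested. With log2 *CD34* as a term over both lines, the log2 fold change changed sign for *NOP10* (−0.24), *TERF2* (−0.065), *TERF2IP* (−0.046), *POT1* (−0.28) and *ACD* (−0.13), all uncalled. *CD34* and the label largely go together, so this fit cannot tell them apart. With 1 library left out, the sign changed within −0.17 to 0.017 for *NHP2*, −0.0054 to 0.098 for *TERF2* and −0.030 to 0.47 for *POT1* in Kasumi-1, within −0.34 to 0.14 for *NHP2*, −0.069 to 0.093 for *TERF2*, −0.054 to 0.28 for *TERF2IP* and −0.062 to 0.45 for *ACD* in SKNO-1, and within −0.22 to 0.014 for *NHP2* and −0.011 to 0.076 for *TERF2* over both lines. Of 195 other fold changes under alternatives, 188 kept direction and side of the threshold. Median levels of the 10 genes moved by less than the spread between replicates under both other scalings. Same-numbered libraries correlated at −0.272 to −0.0132 in their deviations from the mean of their group. The groups mix levels of *CD34* or *RUNX1T1*, which enter these deviations, so this check cannot exclude pairing by number. With the number as a block *TERT* was at 0.91 in Kasumi-1 (adjusted p = 0.383), 0.55 in SKNO-1 and 0.74 over both lines (adjusted p = 0.0947), with 0 genes called by edgeR in each.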
